A study of Mus musculus with 16 samples.

Results

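The Hox-cluster miRNAs of the miR-10 and miR-196 families were examined in small RNA libraries of plasma extracellular vesicles (pEVs). The 4 members, chosen by name as the mature 5p products of the 2 families, are mmu-miR-10a-5p, mmu-miR-10b-5p, mmu-miR-196a-5p and mmu-miR-196b-5p, written below without the species prefix. All 4 are among the 15159 non-coding RNA (ncRNA) entries that were listed, of which 1247 are miRNA entries and 817 of these are mature miRNAs. PS19 mice, used as heterozygotes on a B6;C3 background, carry a transgene in which the mouse Prnp (prion protein) promoter drives MAPT, the human tau gene, with the P301S change, and their wild-type (WT) littermates served as controls. There were 8 PS19 and 8 WT mice of about 9.6 months, with males and females in equal number in each group, and each mouse gave 1 library from 200 µL plasma. Blood was drawn under Avertin anesthesia in both groups. The pEVs were collected by precipitation as a total plasma pool and not by cell of origin, so that fewer vesicles of a cell type and less RNA per vesicle cannot be told apart. The prion protein promoter is most active in the nervous system, whereas the pEV pool can come from any tissue that releases vesicles into blood.

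MiRNAs are short RNAs that guide Argonaute proteins to mRNAs, and the seed, bases 2 to 8 from the 5′ end, sets most of the pairing with a target. The miR-10 genes lie beside the Hox4 genes and the miR-196 genes beside the Hox9 and Hox10 genes, and both families are transcribed with the Hox genes along the head-to-tail axis of the embryo. Hox transcription is a feature of the hindbrain, spinal cord and trunk, including adult organs such as the kidney, and not of the forebrain. MiR-196 is known for directing the cleavage of Hoxb8 mRNA.

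The mature sequences of the 4 members, credited to RefSeq on GRCm38.p6, show that each family is a pair with a single base of difference. They are printed 5′ to 3′ with the seed in capitals, and miR-99a-5p is added as a member of the related miR-99/100 family, used for comparison.
miR-10a-5p: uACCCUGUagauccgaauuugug
miR-10b-5p: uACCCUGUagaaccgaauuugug
miR-196a-5p: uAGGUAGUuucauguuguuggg
miR-196b-5p: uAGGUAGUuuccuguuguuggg
miR-99a-5p: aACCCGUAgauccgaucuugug

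With positions counted from 1 at the 5′ end, miR-10a-5p and miR-10b-5p differ by U12A and agree at the other 22 of 23 bases. MiR-196a-5p and miR-196b-5p differ by A12C and agree at 21 of 22 bases. Both differences lie outside the seed, so the members of a family share it. The seed ACCCUGU was held by 2 mature miRNAs of the RefSeq table and AGGUAGU by 2, the members themselves in each case. The seed of the miR-99/100 family, ACCCGUA, was held by 3. The reads of 2 members of a family can therefore be told apart only by the base at position 12, and how reads with a mismatch there were assigned is not given in the sources used here.

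On GRCm38, miR-10a-5p is at chr11:96317186-96317208 on the plus strand, in an intergenic stretch of the HoxB cluster between Hoxb5 and Hoxb4, and its hairpin gene ends 993 bases from Hoxb4. MiR-10b-5p is at chr2:74726074-74726096 on the plus strand, within annotated introns of Hoxd3 and Hoxd4 in the HoxD cluster. MiR-196a-5p has 2 source hairpins with the same mature sequence, at chr11:96265187-96265208 between Hoxb13 and Hoxb9 and, also on the plus strand, at chr15:102973365-102973386 between Hoxc10 and Hoxc9, the latter inside an annotated intron of a long Hoxc5 transcript. Reads of miR-196a-5p from these 2 loci cannot be told apart. MiR-196b-5p is at chr6:52230129-52230150 on the minus strand, where its hairpin gene overlaps an annotated exon of Hoxa9 and lies 1032 bases from Hoxa10 in the HoxA cluster.

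Summed over all entries, the libraries held between 36220722 and 117583663 assigned reads, with a median of 81772534. Transfer RNAs took between 90.8% and 99.9% of them. A read counted in more than 1 entry enters these sums more than once, as for miR-10b-5p and a circular RNA entry described below. Percentages of all reads are therefore shares of summed entry counts. The share of miRNA entries in PS19 averaged 0.717% ± 0.628 (SD, n = 8), against 1.73% ± 2.44 (SD, n = 8) for WT, and it was lowest in PS19 replicate 4 at 0.0645% and PS19 replicate 1 at 0.0869%. Mature miRNA reads numbered between 51467 and 2681285 per library. The deposited values are normalized counts, in which 1 read was worth between 0.389 and 3.83 depending on the library. The names of all 8 PS19 libraries begin with 1 letter that only 2 WT libraries share, and what the letter stands for is not given. The 2 remaining letters hold WT libraries only, so values within the shared letter are given beside the comparisons of the members between genotypes.

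The miR-10 pair was abundant and the miR-196 pair was near the limit of detection in pEVs (the plot of levels by library). Of the 173791 reads of the 4 members, miR-10a-5p took 61.6%, miR-10b-5p 38.3%, miR-196a-5p 0.0880% and miR-196b-5p 0.0242%. MiR-10a-5p ranked between place 14 and place 31 among the mature miRNAs of a library (median 18.5) and miR-10b-5p between place 17 and place 66 (median 24.5). In log2(normalized count + 1), miR-10a-5p exceeded miR-10b-5p by 0.79 ± 0.54 (SD, n = 16) and in 16 of 16 libraries (exact sign-flip permutation test, two-sided, p = 3.05e-05, the smallest it can give; 4.58e-05 adjusted over the 3 neighbouring pairs). MiR-10b-5p exceeded miR-196a-5p by 9.0 ± 1.61 (SD, n = 16), again in 16 of 16 libraries (exact sign-flip permutation test, adjusted p = 4.58e-05). MiR-196a-5p and miR-196b-5p, at the low end, did not pass the test, with a difference of 0.81 ± 1.83 (SD, n = 16) and with miR-196a-5p higher in 9 libraries, lower in 4 and equal in 3 (exact sign-flip permutation test, p = 0.0984). Within the 10 libraries of the shared letter these differences were 0.87, 8.70 and 0.85. Because miR-196a-5p and miR-196b-5p were at 0 in some libraries, the last 2 depend on the pseudocount and were 10.21 and 1.25 with 0.1 in place of 1.

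**Figure D1:**
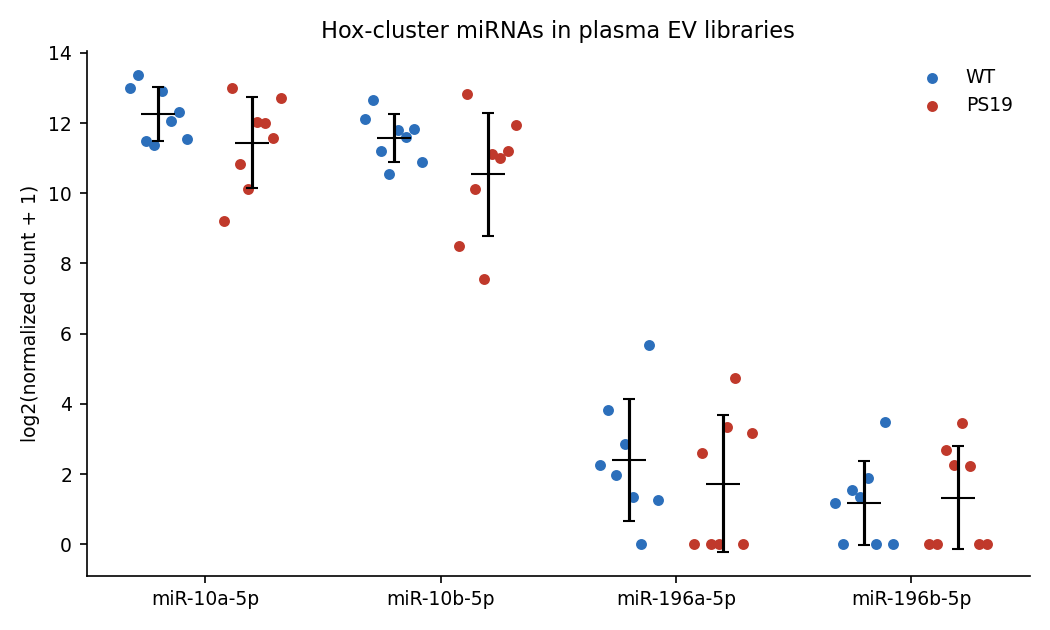
Level of each member in each library, as log2(normalized count + 1) on the vertical axis, for WT (blue) and PS19 (red); each point is 1 mouse, the horizontal line is the group mean and the bar is 1 SD (n = 8). The miR-10 points sit between 7.56 and 13.38 and the miR-196 points between 0 and 5.66, and the PS19 and WT points overlap for all 4 members.

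MiR-10a-5p, the product of the HoxB cluster, had a median of 3563 normalized counts in PS19 (lowest 597, highest 8167) and 4669 in WT (lowest 2665, highest 10668). The PS19 replicates had 597, 8167, 1841, 1112, 4207, 4065, 3061 and 6685, and the WT replicates 8134, 10668, 2867, 2665, 7659, 4234, 5105 and 2999. PS19 replicates 1, 3 and 4 lay below every WT library, 1 WT library lay above every PS19 library, and the remaining ranges overlapped. The mean on the log2 scale was 11.44 in PS19 and 12.26 in WT. The log2 difference of −0.82 (SE 0.53, 95% interval −1.92 to 0.28) did not pass the test in limma (p = 0.137, adjusted p = 0.829 over all entries) or in a two-sided exact permutation test (p = 0.146). Without PS19 replicate 1 it was −0.50 (limma SE 0.50). Within the shared letter it was −0.94 (limma SE 0.99, exact permutation p = 0.400).

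MiR-10b-5p, the product of the HoxD cluster, had a median of 2140 normalized counts in PS19 (lowest 188, highest 7323) and 3340 in WT (lowest 1498, highest 6467). The PS19 replicates had 363, 7323, 1123, 188, 2213, 2066, 2339 and 3973, and the WT replicates 4403, 6467, 2345, 1498, 3584, 3097, 3618 and 1903. The same PS19 replicates, 1, 3 and 4, lay below every WT library, while the highest library of all was PS19 replicate 2. The mean was 10.54 in PS19 and 11.58 in WT on the log2 scale. The log2 difference of −1.04 (SE 0.61, 95% interval −2.28 to 0.20) did not pass the test in limma (p = 0.0978, adjusted p = 0.829) or in the exact permutation test (p = 0.150). Without PS19 replicate 2 the difference was −1.37 and passed the raw threshold (limma p = 0.0271, exact permutation p = 0.0356). Without PS19 replicate 4 it was −0.61 (limma SE 0.52) and did not pass. Within the shared letter it was −1.06 (limma SE 1.10, exact permutation p = 0.511).

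MiR-196a-5p, which derives from the HoxB and HoxC clusters, was read 57 times over all PS19 libraries and 96 times over all WT libraries. The PS19 replicates had 0, 7, 0, 0, 11, 28, 0 and 11 reads and the WT replicates 3, 32, 3, 4, 4, 0, 49 and 1. It was at 0 in 5 libraries and above 3 reads in 8. The log2 difference was −0.67 (SE 0.80, 95% interval −2.31 to 0.97, limma p = 0.408, adjusted p = 0.842, exact permutation p = 0.471), and within the shared letter −1.60 (limma SE 1.22, exact permutation p = 0.311).

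MiR-196b-5p, from the HoxA cluster, was read 21 times in PS19 and 21 times in WT. The PS19 replicates had 0, 0, 4, 1, 12, 4, 0 and 0 reads and the WT replicates 1, 0, 2, 1, 7, 0, 10 and 0. It was at 0 in 7 libraries and above 3 reads in 5. The log2 difference was 0.15 (SE 0.66, 95% interval −1.21 to 1.51, limma p = 0.825, adjusted p = 0.953, exact permutation p = 0.828), and within the shared letter 0.66 (limma SE 1.11, exact permutation p = 0.556).

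Both miR-196 miRNAs were read in 7 libraries and neither in 3. A count of 0 allows up to 3 reads, which is between 0.000112% and 0.00583% of the mature miRNA reads of a library. MiR-196a-5p had under 10 reads in 11 libraries and miR-196b-5p in 14, so their ratio was not compared between genotypes. No difference between PS19 and WT was detected in the miR-196 pair.

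None of the 4 members passed the raw p of 0.05 used in the study, against 735 of 15159 entries over the whole table (4.85%) and 51 of 817 mature miRNAs (6.24%). The calls over the table were higher in PS19 for 2.72% of the entries and lower for 2.13%, and those over mature miRNAs higher for 0.734% and lower for 5.51%. The exact permutation test called 600 entries (3.96%) and 37 mature miRNAs (4.53%). After adjustment over all entries limma called 0, whereas edgeR on the recovered reads called 318 (2295 at a raw p under 0.05) and DESeq2 called 113 (822 at a raw p under 0.05). None of the members had a raw p under the threshold in either of these 2 tools. The median log2 difference of the members was −0.74, with 3 of 4 below 0, beside −0.01 over all entries, of which 50.8% were below 0, and −0.25 over mature miRNAs, of which 73.1% were below 0. Low entries weigh on the median of mature miRNAs, which was −0.57 with a filter at a mean normalized count of 1. With a filter at a mean of 10 it was −0.64. The direction of the miR-10 values in PS19 was thus that of most mature miRNAs.

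The normalized miR-10 level followed the miRNA share of the library (the plot of miR-10 against miRNA share). Over the 16 libraries the log2 sum of miR-10a-5p and miR-10b-5p correlated with the log2 percent of reads in miRNA entries. Pearson's r was 0.93 (permutation p = 1e-05, the smallest it can give) and Spearman's rho 0.95 (permutation p = 1e-05). Adjusted over the Pearson and Spearman tests of the 3 relations computed, each permutation p was 1.5e-05. Pearson's r was 0.92 without the 2 libraries farthest from the median of the share, 0.98 within PS19, 0.86 within WT and 0.96 within the shared letter. The miR-10 reads are themselves part of the miRNA share. Both measures come from the same reads, the level divided by the library's size factor and the share by its total.

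**Figure D2:**
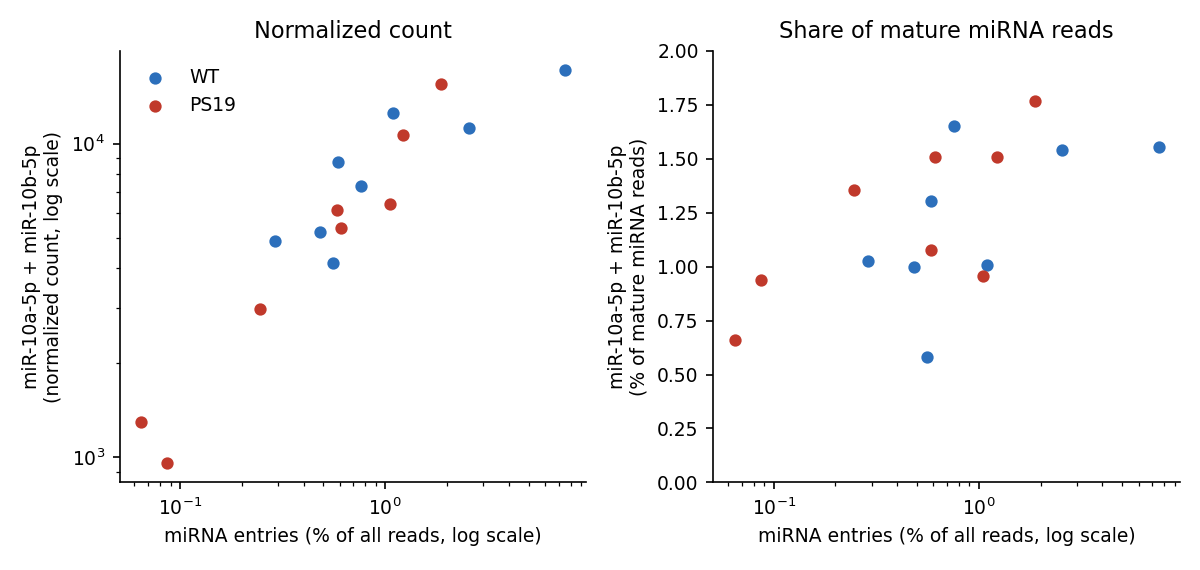
Summed miR-10a-5p and miR-10b-5p in each library against the percent of its reads in miRNA entries (log scale), as normalized counts (left, log scale) and as percent of mature miRNA reads (right, linear scale); each point is 1 library, WT in blue and PS19 in red. PS19 replicates 1 and 4, with 0.0869% and 0.0645% of reads in miRNA entries, are the 2 lowest points on the left, while on the right the PS19 points (0.659% to 1.77%) and WT points (0.583% to 1.65%) cover like ranges.

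As a share of mature miRNA reads, a measure that does not move with the tRNA reads, the miR-10 pair of PS19 averaged 1.22% ± 0.372 (SD, n = 8) and that of WT 1.21% ± 0.367 (SD, n = 8). The share ran from 0.659% in PS19 replicate 4 to 1.77% in PS19 replicate 2, and from 0.583% in WT replicate 4 to 1.65% in WT replicate 6. The log2 difference was 0.02 (95% interval −0.48 to 0.54, exact permutation p = 0.930, and 0.930 adjusted over the 5 ratios and shares compared). It was 0.30 within the shared letter (exact permutation p = 0.533) and 0.21 without PS19 replicates 1 and 4 (exact permutation p = 0.403). For miR-10a-5p alone the PS19 mean was 0.758% ± 0.156 (SD, n = 8) and the WT mean 0.743% ± 0.235 (SD, n = 8), and for miR-10b-5p 0.464% ± 0.228 (SD, n = 8) and 0.466% ± 0.150 (SD, n = 8).

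The spread between libraries was also smaller on this measure. MiR-10a-5p varied 17.9-fold between the lowest and the highest library in normalized counts (SD of log2 1.11, n = 16) and 2.82-fold as a share of mature miRNA reads (SD of log2 0.40). MiR-10b-5p varied 39.0-fold in normalized counts (SD of log2 1.39) and 8.78-fold as a share (SD of log2 0.75).

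The size of the miR-10 differences varied with the scaling, the tool and the libraries used (the plot of differences by scaling). Scaled to mature miRNA totals, the log2 difference was 0.07 for miR-10a-5p (limma SE 0.36, exact permutation p = 0.735), a turn in direction, and −0.15 for miR-10b-5p (limma SE 0.45, exact permutation p = 0.736). This scaling shifted the median of all entries to 0.29, and scaling to library totals shifted it to −0.11. When the miRNA share on the log2 scale entered the limma fit as a covariate, the differences were −0.14 (SE 0.33) and −0.22 (SE 0.37). Without PS19 replicates 1 and 4, an alternative chosen after the values were seen, they were −0.23 (exact permutation p = 0.576) and −0.20 (exact permutation p = 0.637). Scaled to library totals, in which tRNA reads weigh most, they were −1.09 (exact permutation p = 0.283) and −1.31 (exact permutation p = 0.264). On the recovered reads they were −0.71 and −0.58 in edgeR and −0.58 and −0.46 in DESeq2.

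**Figure D3:**
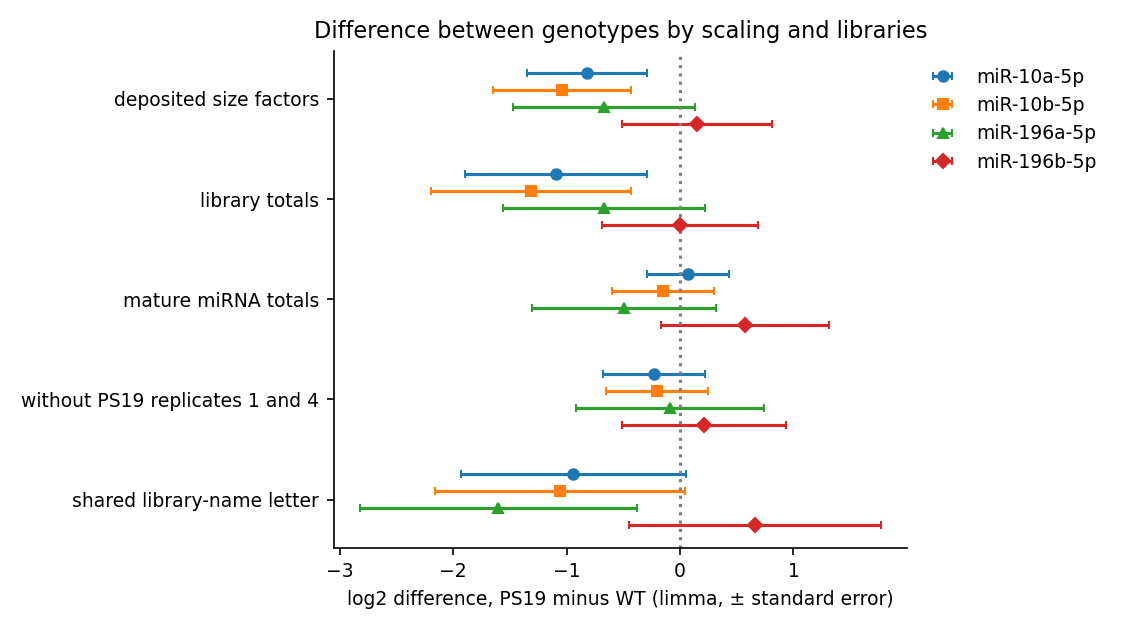
Log2 difference between PS19 and WT (horizontal axis, PS19 minus WT, with the limma standard error as bars) for the 4 members under 5 settings of scaling or libraries, the dotted line marking no difference. MiR-10a-5p runs from −1.09 with library totals to 0.07 with mature miRNA totals and miR-10b-5p from −1.31 to −0.15, while the standard errors of the miR-196 pair stay between 0.66 and 1.22 in all 5 settings.

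The miR-196 pair averaged 0.00177% ± 0.00175 (SD, n = 8) of mature miRNA reads among PS19 libraries, against 0.00168% ± 0.00296 (SD, n = 8) for WT. The highest share was 0.00892% in WT replicate 7, with an exact binomial 95% interval of 0.00679% to 0.0115% that covers counting error only. The log2 difference of the share was 0.76 (95% interval −1.24 to 2.74, exact permutation p = 0.434, adjusted p = 0.913). It was 0.10 within the shared letter (exact permutation p = 0.933), 0.26 without WT replicate 6, 0.47 without PS19 replicate 6, 1.26 without PS19 replicate 7 and 1.27 without WT replicate 7. The log2 ratio of summed miR-196 to summed miR-10 averaged −9.59 ± 1.67 (SD, n = 8) for PS19 libraries, against −10.25 ± 1.69 (SD, n = 8) for WT, a difference of 0.66 (95% interval −1.16 to 2.44, exact permutation p = 0.442, adjusted p = 0.913). This difference was −0.02 within the shared letter, 0.29 without WT replicate 6, 0.38 without PS19 replicate 6, 1.06 without PS19 replicate 7 and 1.10 without WT replicate 7.

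Within the miR-10 family, the balance of the HoxB and HoxD products was alike in most libraries (the plot of ratios by library). The ratio of miR-10a-5p to miR-10b-5p reads had a median of 1.66 in PS19 and 1.61 in WT, and it was above 1 in every library. In WT it ran from 1.22 to 2.14. In PS19 it ran from 1.12 to 1.97 in 7 libraries, and PS19 replicate 4 stood apart at 5.92, where 49 of 339 miR-10 reads were miR-10b-5p (14.5%, exact binomial 95% interval 10.9% to 18.7%). In the other libraries miR-10b-5p was between 31.9% and 47.3% of the miR-10 reads. The log2 ratio of miR-10b-5p to miR-10a-5p averaged −0.90 ± 0.72 (SD, n = 8) for PS19 libraries, against −0.68 ± 0.26 (SD, n = 8) for WT, a difference of −0.22 (95% interval −0.80 to 0.26, exact permutation p = 0.548, adjusted p = 0.913), and it was 0.02 without PS19 replicate 4 and −0.12 within the shared letter.

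**Figure D4:**
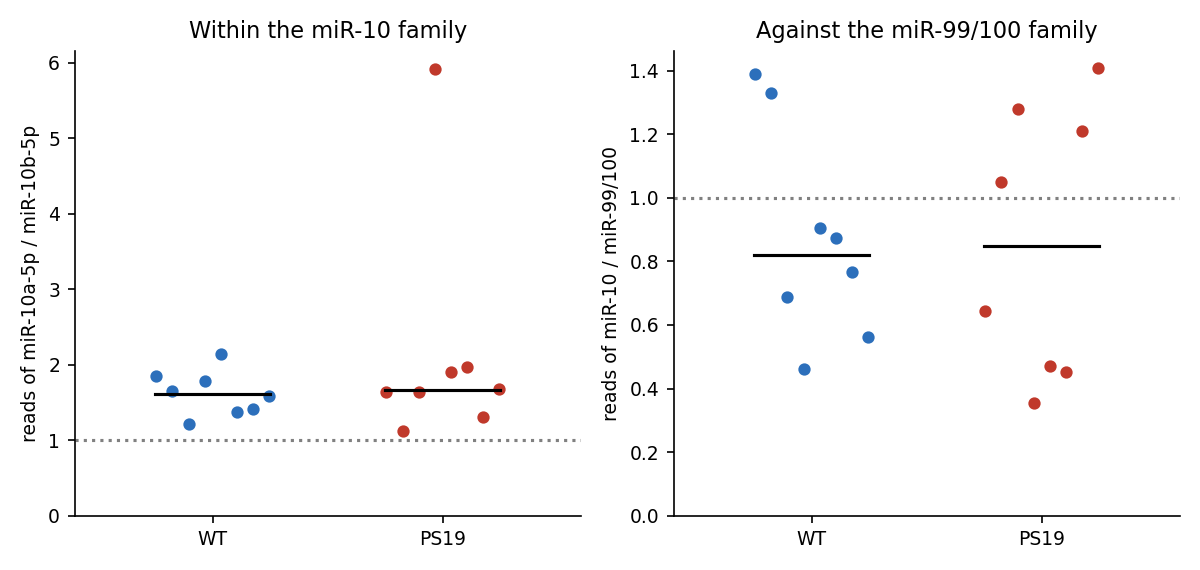
Ratio of miR-10a-5p to miR-10b-5p reads (left) and of summed miR-10 to summed miR-99/100 reads (right) in each library, linear axes from 0, with WT in blue and PS19 in red; each point is 1 library, the line is the group median and the dotted line marks a ratio of 1. All 16 libraries lie above 1 on the left, where PS19 replicate 4 is at 5.92, and 4 PS19 and 2 WT libraries lie above 1 on the right.

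MiR-10a-5p and miR-10b-5p varied together over the libraries. On log2(normalized count + 1), Pearson's r was 0.93 (permutation p = 1e-05, the smallest it can give, adjusted p = 1.5e-05) and Spearman's rho 0.95 over 16 libraries. As shares of mature miRNA reads, r was 0.72 (permutation p = 0.00243) and rho 0.79 (permutation p = 0.000480). The 2 shares have the same denominator, which can move them together. MiR-122-5p alone took from 2.12% of it in PS19 replicate 3 to 29.4% in WT replicate 1. On the share, r was 0.73 without the 2 libraries farthest from the median, 0.83 within PS19, 0.87 within WT and 0.77 within the shared letter. Single-base neighbours can also share misassigned reads, and the size of that part was not tested.

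Among 217 other mature miRNAs whose mean normalized count reached 10, the 3 most alike miR-10a-5p over the 16 libraries in normalized counts were miR-296-3p (rho 0.95), miR-148a-3p (0.91), which is abundant in liver, and miR-28a-3p (0.91). The members themselves were left out of these rankings, although rho between miR-10a-5p and miR-10b-5p was 0.95. For miR-10b-5p the 3 were miR-501-3p (rho 0.93), miR-296-3p (0.90) and miR-1981-5p (0.89). The median rho of the 217 with miR-10a-5p was 0.56. On shares of mature miRNA reads the same values for miR-10a-5p were 0.58, 0.33 and 0.54, and those for miR-10b-5p were 0.74, 0.41 and 0.30, beside 0.79 between miR-10a-5p and miR-10b-5p.

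The miR-99/100 family, whose members differ from miR-10 within the seed, was the comparison family. MiR-99a-5p had a log2 difference of −0.86 (SE 0.53, exact permutation p = 0.117), miR-99b-5p of −0.67 (SE 0.45, p = 0.0923) and miR-100-5p of −0.58 (SE 0.46, p = 0.149), and 0 of 3 passed the test in limma or in the exact permutation test. The ratio of summed miR-10 to summed miR-99/100 reads ran from 0.354 to 1.41 in PS19 (median 0.848) and from 0.460 to 1.39 in WT (median 0.821). The 2 families were thus of like abundance, with miR-10 the higher in 4 PS19 and 2 WT libraries. The log2 ratio differed by −0.11 between the genotypes (95% interval −0.83 to 0.61, exact permutation p = 0.755, adjusted p = 0.930), and by −0.04 within the shared letter.

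The other products of the Mir10a and Mir10b loci were read far less often than their 5p arms. The hairpins of Mir10a and Mir10b from RefSeq (GRCm38.p6, both on the plus strand, at chr11:96317165-96317274 and chr2:74726070-74726137) are shown with both mature arms in capitals, the 5p arm first, because the arms and the hairpin have separate entries.
Mir10a: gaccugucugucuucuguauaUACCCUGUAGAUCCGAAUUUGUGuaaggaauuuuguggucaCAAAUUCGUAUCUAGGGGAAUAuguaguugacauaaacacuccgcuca
Mir10b: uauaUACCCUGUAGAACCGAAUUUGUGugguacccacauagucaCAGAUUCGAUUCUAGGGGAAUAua

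Of 13 further entries of the Hox-cluster miRNA loci, 6 were listed, namely miR-10a-3p, miR-10b-3p, miR-615-3p and the hairpins mir-10a, mir-10b and mir-196a-1. The 3p arm was 0.194% of the reads of both arms of miR-10a and 0.0300% of those of miR-10b. The mir-10a hairpin entry held 1828 reads, 1.71% of the reads of miR-10a-5p, and the mir-10b entry 115 reads, 0.173% of those of miR-10b-5p. The mir-10a hairpin, the only entry of the 6 whose mean normalized count reached 10, had a log2 difference of −0.84 (SE 0.55, limma p = 0.136, exact permutation p = 0.146). MiR-615-3p, from an intron of Hoxc5, had 107 reads in PS19 and 74 in WT.

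Of the 6 entries 1 passed the raw p of 0.05, in the direction of less in PS19, where the background was 2.13% over all entries and 5.51% over mature miRNAs, and 4 of 6 were below 0 with a median of −0.50. This was miR-10a-3p, the arm opposite miR-10a-5p, and it is singled out after its values were seen, since its mean normalized count was 9.06. The PS19 replicates had 0, 2, 1, 0, 1, 21, 0 and 14 reads and the WT replicates 23, 56, 21, 0, 38, 19, 9 and 3. It was lower in PS19 by limma's raw p, with a log2 difference of −2.0 (SE 0.73, 95% interval −3.50 to −0.51, limma p = 0.0107, adjusted p = 0.829, exact permutation p = 0.0303). The groups overlapped, with PS19 replicates 6 and 8 at 21 and 14 reads and WT replicate 4 at 0. The call was lost, with the difference still below 0, when the miRNA share was a covariate (−1.46, SE 0.72), without PS19 replicates 1 and 4 (−1.53, SE 0.76), in DESeq2 (−1.69, SE 0.90) and within the shared letter (−0.89, SE 1.27). Relative to miR-10a-5p in the same library, its log2 ratio differed by −1.18 (95% interval −2.58 to 0.24, exact permutation p = 0.0942), and within the shared letter by 0.05.

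An entry of another class carried almost the same reads as miR-10b-5p. The circular RNA entry mmu_circ_0010180 held 66735 reads against 66588 for miR-10b-5p, was equal to it in 1 library and above it by at most 23 reads in the other 15. Its log2 difference was −1.04 (SE 0.60, limma adjusted p = 0.829). The 2 entries therefore count as 1 measurement, with nearly all of these reads apparently counted in both. Which of the 2 RNAs the reads come from is uncertain. The position of this circular RNA entry is not given in the file. No circular RNA entry with a Pearson's r above 0.99 over the 16 libraries was found for miR-10a-5p or the miR-196 pair.

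Marker miRNAs of cell types that can release vesicles into plasma were all above 0 in the sum of each library. The summed level of the endothelial markers (miR-126a arms) ran from 516 to 2262 normalized counts in PS19 and from 1444 to 3373 in WT, where miR-126a-3p had a log2 difference of −0.75 (limma p = 0.0849, exact permutation p = 0.0169). That of the kidney and epithelial markers (miR-200a-3p, miR-200b-3p and miR-192-5p) ran from 1802 to 22908 and from 2488 to 26658. Most of this sum was miR-192-5p, which is also abundant in liver, while miR-200a-3p ran from 19.2 to 616 in PS19 and from 128 to 748 in WT, and miR-200b-3p from 15.3 to 167 and from 43.0 to 370.5. Liver miR-122-5p, the only 1 of 2 liver markers that was listed, ran from 4644 to 189147 and from 22364 to 365051, with a log2 difference of −1.57 (limma p = 0.0387, adjusted p = 0.829, exact permutation p = 0.0805). The red cell markers ran from 1952 to 44879 and from 17302 to 94866, and 1 of the 5, miR-486a-5p, passed the raw p with −1.41 (limma p = 0.0410, adjusted p = 0.829, exact permutation p = 0.0791), while miR-451a was at −0.67, miR-16-5p at −0.77, miR-144-3p at −0.18 and miR-144-5p at 0.36. These calls stand beside 5.51% of mature miRNAs called lower in PS19. The neuronal markers (miR-124-3p, miR-9-5p and miR-128-3p) ran from 981 to 10017 and from 2206 to 10415, and the platelet and myeloid markers from 23.0 to 218 and from 34.1 to 147. The part of these cell types in the miR-10 values was not tested.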

How the data were processed

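The labels give 8 PS19 and 8 WT libraries. Per the study's methods and the submitters' processing notes, the authors aligned single-end reads (NEBNext small RNA libraries, NextSeq) with STAR 2.5.3a, assigned them to ncRNAs with COMPSRA and normalized them with DESeq2 1.42.1, and the notes name mm10 as the build. The deposited signal of each library is the count divided by its DESeq2 size factor. The mean signal, log2 fold changes with their errors, Wald score and p-values that the authors deposited were not used. Whole reads were recovered by dividing by the smallest positive value, and 100% of values were whole within 1e-06.

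All 15159 entries were fitted with limma 3.58.1 (lmFit, eBayes with a trend) on log2(normalized count + 1), PS19 minus WT, two-sided, with no covariates, a raw p threshold of 0.05 and Benjamini-Hochberg adjustment over all entries. A fold change on this scale understates the change of low entries. Single values, ratios and shares were compared by two-sided exact permutation tests over libraries (0.5 read added for the miR-196 share, a pseudocount of 1 for ratios), with 95% intervals of ratios and shares from inverting the test. The 95% intervals of single entries are those of limma's moderated statistic, and both kinds rest on the spread between libraries. Correlations used 100000 resamples. Binomial intervals and floors cover counting error only. Alternatives were edgeR 4.0.16 and DESeq2 1.42.0 on the recovered reads in R 4.3.3, other scalings, filters at a mean of 1 or 10, a pseudocount of 0.1, a replicate block, 1 entry per set of identical values (4096 entries share theirs with another), the miRNA share as a covariate, the shared library-name letter, and leaving out each library. The scripts were checked on simulated data (Python 3.11.15, numpy 2.4.6, pandas 2.3.3, scipy 1.17.1).

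The members, lists and tests were chosen with earlier results of these data known. The text names all 4 members, the other Hox-cluster entries by their reads and, at a mean normalized count of at least 10, by their test, the miR-99/100 family, the markers by their sums, and for members with at least 10 reads in every library the 3 mature miRNAs other than members with the highest rho. Sequences were matched by name to RefSeq for 4 of 4 members and 695 of 817 mature entries, and positions of genes are from GENCODE on GRCm38. Sex was not given per library, so it was not a covariate.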

Additional observations from a re-analysis of the deposited data

Results flagged for a closer look

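Of 26 groups of 8 libraries checked, 7 held a library that stood apart by Dixon's 95% critical value. The gap to the nearest of the others was taken as a share of the group's range. That critical value gives about 1 in 20 by chance only for normally distributed values. The values checked were not on a log scale and some groups held several at 0, so 7 of 26 cannot be set against that rate. WT replicate 7 stood apart in miR-196a-5p (49.7 normalized counts, the next library 13.2), in miR-196b-5p (10.1, next 2.72) and in the share of mature miRNA reads taken by miR-196 (0.00892%, next 0.00119%), which are 3 views of the same 59 reads. PS19 replicate 6 stood apart in miR-196a-5p with 25.7 normalized counts (next 9.08). PS19 replicate 4 had a ratio of miR-10a-5p to miR-10b-5p reads of 5.92 (next 1.97), in the library with the fewest mature miRNA reads, 51467. The same library was highest of all 16 in the neuronal markers as a share of mature miRNA reads, with 3.76% for miR-128-3p (next 1.17%, in WT replicate 7), 1.21% for miR-9-5p (next 0.360%) and 0.105% for miR-124-3p (next 0.0224%), and the part of either in the ratio was not tested. PS19 replicate 8 had 44.3 normalized counts of miR-615-3p (next 20.6). PS19 replicate 7 had 17.5 normalized counts of the mir-10b hairpin (next 7.35).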

How the results depend on the processing

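Over 28 alternatives the log2 difference of miR-10a-5p ran from −1.09 to 0.07 (limma p from 0.0634 to 0.842), above 0 only with mature miRNA totals (0.07). That of miR-10b-5p ran from −1.37 to −0.15 and passed the raw p only without PS19 replicate 2. That of miR-196a-5p was −1.70 to −0.07 over 27. Leaving out 1 library gave −1.04 to −0.50 for miR-10a-5p, −1.37 to −0.61 for miR-10b-5p, −1.10 to −0.20 for miR-196a-5p and −0.15 to 0.48 for miR-196b-5p, which was also −0.09 with a pseudocount of 0.1 and −0.01 with the miRNA share as a covariate. A filter at a mean of 10 leaves no value for the miR-196 pair, and their ratio had no alternatives since it was not tested. For the ratio of miR-10b-5p to miR-10a-5p, leaving out 1 library gave −0.33 to 0.02, and without PS19 replicates 1 and 4 it was 0.03. For miR-10 over miR-99/100 it gave −0.23 to 0.05, and without those 2 libraries 0.12. For the miR-10 share it gave −0.12 to 0.14, with 0.30 within the shared letter and 0.21 without those 2 libraries. For the miR-196 share it gave 0.26 to 1.27, with 0.49 at an added 0.1 read and 0.10 within the shared letter. The ratio of miR-196 to miR-10 was −0.02 within the shared letter and 0.29 to 1.10 without 1 library. The ratio of miR-10a-3p to miR-10a-5p was 0.05 there, −2.23 with a pseudocount of 0.1 and −1.54 to −0.93 without 1 library, with exact permutation p = 0.0252 without WT replicate 4 and 0.0274 without PS19 replicate 6. The cause of these changes was not tested.

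The 735 calls over the table (56.1% higher in PS19) became 437 with library totals (33.0% higher), 1140 with mature miRNA totals (91.3% higher), 230 with a mean of at least 10 (74.3% higher), 2295 with edgeR (52.1% higher), 644 within the shared letter (21.6% higher), 756 with the covariate (45.0% higher) and 822 with DESeq2 (70.7% higher). Of the 6 other Hox-cluster entries, the 1 call became 0 with a mean of at least 10, the covariate, the shared letter, DESeq2 or without PS19 replicates 1 and 4, became 2 with a pseudocount of 0.1, and was 1 to 3 without 1 library (2 without PS19 replicate 6, 7 or 8 or WT replicate 5, and 3 without WT replicate 8). Each replicate number stands for a different mouse in each genotype, and same-number libraries did not deviate together (correlations from −0.18 to 0.47, median −0.10, 2 of 8 over 0.1, and 1 PS19 library closest to its own number). With the replicate block the table had 685 calls and the differences were −0.82 (SE 0.52) for miR-10a-5p, −1.04 (SE 0.54) for miR-10b-5p, −0.67 (SE 0.87) for miR-196a-5p and 0.15 (SE 0.66) for miR-196b-5p, and no call on a member changed. The miR-196 pair rests on 153 and 42 reads in all libraries.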
